A study of Mus musculus with 7 samples.

Results

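Gene desert peaks were the H3K27ac peaks whose centre lay more than 200 kb from every TSS (transcription start site) of protein-coding genes and outside every protein-coding gene body. They made up 4411 of the 66841 peaks in the merged set, and positions came from the GENCODE M21 annotation of mm10. The ChIP-seq was done on mouse embryonic stem (ES) cells of the A2Lox line that carry a NeuroD1 transgene switched on by doxycycline. Libraries came from uninduced cells (0 h, no doxycycline) and from cells kept for 12 h or 48 h with 500 ng per ml of doxycycline, with 2 libraries per time point, R1 and R2. All cells were of this inducible line and were taken off feeders before the experiment, and no library of doxycycline-treated cells without the transgene was used here. Time in culture, doxycycline and NeuroD1 therefore cannot be told apart. Nothing in the sources says that R1 and R2 were separate cultures, so p-values measure the spread between these libraries, which may be technical.

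H3K27ac is an acetylation of histone H3 that marks active promoters and active enhancers. Gene deserts are long stretches without protein-coding genes, and several of them beside developmental regulators hold enhancers that act over long distances. They are also rich in repeats, sequences that occur in many copies. NeuroD1 is a bHLH transcription factor of neuronal differentiation that binds E-boxes, the sequence CANNTG, as a dimer with an E protein.

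The peaks that changed most differed in sequence, which is why their centres are shown. The 5 peaks with the largest gain between 0 h and 48 h lay in sequence that is mostly single-copy, and 200 bases around each centre are given on the forward strand of mm10, 5′ to 3′, with E-boxes in capitals.
near Olfm4, chr14:80233692-80233891: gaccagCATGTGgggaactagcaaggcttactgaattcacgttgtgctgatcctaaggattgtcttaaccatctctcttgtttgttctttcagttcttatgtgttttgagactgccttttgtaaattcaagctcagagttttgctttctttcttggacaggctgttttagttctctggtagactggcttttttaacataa
near Sox11, chr12:27646201-27646400: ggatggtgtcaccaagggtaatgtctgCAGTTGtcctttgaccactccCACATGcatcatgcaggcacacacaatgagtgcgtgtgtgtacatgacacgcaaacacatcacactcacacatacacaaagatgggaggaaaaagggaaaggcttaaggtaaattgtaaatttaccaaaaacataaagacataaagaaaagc
near Marcks, chr10:37908180-37908379: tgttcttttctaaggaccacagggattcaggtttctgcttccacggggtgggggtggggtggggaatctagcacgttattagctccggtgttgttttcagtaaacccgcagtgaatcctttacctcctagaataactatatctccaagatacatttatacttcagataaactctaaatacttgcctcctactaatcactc
near Pros1, chr16:63081492-63081691: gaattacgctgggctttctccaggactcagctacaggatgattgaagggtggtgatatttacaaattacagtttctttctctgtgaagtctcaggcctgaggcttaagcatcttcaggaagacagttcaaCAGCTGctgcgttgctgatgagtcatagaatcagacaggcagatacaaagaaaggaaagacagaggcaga
near Cypt12, chr3:17590436-17590635: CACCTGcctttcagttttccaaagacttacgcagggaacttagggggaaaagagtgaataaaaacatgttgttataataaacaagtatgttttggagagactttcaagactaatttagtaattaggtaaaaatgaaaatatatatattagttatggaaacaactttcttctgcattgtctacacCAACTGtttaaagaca
The 3 peaks with the largest loss over the same time lay in repeats and are shown in the same way.
near Gfra2, chr14:71397845-71398044: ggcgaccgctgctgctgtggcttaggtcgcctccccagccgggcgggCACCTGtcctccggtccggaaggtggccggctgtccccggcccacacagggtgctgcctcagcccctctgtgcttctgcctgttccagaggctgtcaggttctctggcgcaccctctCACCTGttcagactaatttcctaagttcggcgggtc
near Tfec, chr6:16601564-16601763: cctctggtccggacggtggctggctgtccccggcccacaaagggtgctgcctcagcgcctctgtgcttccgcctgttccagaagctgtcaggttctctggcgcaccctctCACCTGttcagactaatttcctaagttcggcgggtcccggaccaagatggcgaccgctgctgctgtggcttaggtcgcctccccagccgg
near Cited2, chr10:16777552-16777751: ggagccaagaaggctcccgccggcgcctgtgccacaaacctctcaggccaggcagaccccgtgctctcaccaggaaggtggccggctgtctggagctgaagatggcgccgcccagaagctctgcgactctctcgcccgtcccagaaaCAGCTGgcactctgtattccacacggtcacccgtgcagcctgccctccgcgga
The centre near Olfm4 held 1 E-box (CATGTG), that near Sox11 held 2 and that near Marcks held 0 within these bases. The centres near Gfra2 and Tfec both carried CACCTG and belonged to the same sequence family, described next, whereas that near Cited2 carried CAGCTG and belonged to another.

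Repeat sequence filled many of the gene desert peaks. Of the 4411, 2133 (48.4%) had at least 80% of their bases soft-masked in the reference, the lower-case mark for repeats and low-complexity sequence, and are called repeat-filled here. The remaining 2278, which could still be partly masked, are called less-masked. Repeat-filled peaks had a median GC content of 60.6% and less-masked peaks of 42.5%. A median of only 6.78% of the sampled 31-base words of repeat-filled peaks occurred once in the genome, against 97.2% for less-masked peaks. Reads from such copies cannot be placed with certainty, so the count of an individual repeat-filled peak is uncertain, and the peaks of a family share reads.

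Most repeat-filled peaks belonged to a few families of near-identical sequence. Families were built by linking peaks that matched over at least 200 bases at 95% identity or more, and 1969 of the 2133 fell into 1. Family 1 held 1058 gene desert peaks, family 2 held 599 and family 4 held 109. These 3 families were GC-rich, with median GC contents of 60.1%, 62.1% and 66.0%, and many of their peaks were made of head-to-tail copies of a unit of about the same length, most often 212 bp, 208 bp and 206 bp. A copy of each unit is printed because these families make up 1766 of the 4411 gene desert peaks, and a capital marks the base at which the next copy differs from the one before it.
family 1 near Aga, first copy, chr8:52304595-52304806: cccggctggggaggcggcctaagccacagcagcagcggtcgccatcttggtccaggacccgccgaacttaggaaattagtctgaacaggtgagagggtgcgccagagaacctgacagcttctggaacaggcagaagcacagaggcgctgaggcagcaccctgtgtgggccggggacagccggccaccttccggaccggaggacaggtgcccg
family 1 near Aga, next copy, chr8:52304807-52305018: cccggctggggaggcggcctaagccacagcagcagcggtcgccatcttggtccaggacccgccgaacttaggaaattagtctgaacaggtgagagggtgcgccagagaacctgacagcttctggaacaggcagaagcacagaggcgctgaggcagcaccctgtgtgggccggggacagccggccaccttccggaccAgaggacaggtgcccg
family 2 near 1700008P02Rik, chr3:6299468-6299675: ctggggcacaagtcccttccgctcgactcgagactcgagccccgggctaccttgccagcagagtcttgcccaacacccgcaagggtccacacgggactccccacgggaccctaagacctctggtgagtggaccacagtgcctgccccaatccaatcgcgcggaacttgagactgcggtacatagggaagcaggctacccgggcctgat
family 4 near Smarca1, first copy, chrX:47436451-47436656: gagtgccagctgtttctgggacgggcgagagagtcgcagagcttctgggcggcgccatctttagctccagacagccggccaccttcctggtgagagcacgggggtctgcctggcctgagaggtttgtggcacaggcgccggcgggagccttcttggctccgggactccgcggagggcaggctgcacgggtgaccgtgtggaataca
family 4 near Smarca1, next copy, chrX:47436657-47436862: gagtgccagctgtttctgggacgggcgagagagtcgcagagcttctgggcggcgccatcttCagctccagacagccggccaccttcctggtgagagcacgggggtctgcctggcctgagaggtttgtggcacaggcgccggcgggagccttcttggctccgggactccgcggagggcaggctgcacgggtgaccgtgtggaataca
The second copy of the family 2 unit beside the printed one was identical to it. The sequence CACCTG (searched on both strands, so also as CAGGTG) occurred within 250 bp of the centre in 99.9% of family 1 peaks, in 5.68% of family 2 peaks and in 37.0% of all merged peaks. Family 3 (171 peaks) and family 5 (76 peaks) had no tandem unit and a GC content of 42.3% and 45.2%. No repeat annotation was used here, so the families carry numbers and no names.

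**Figure D1:**
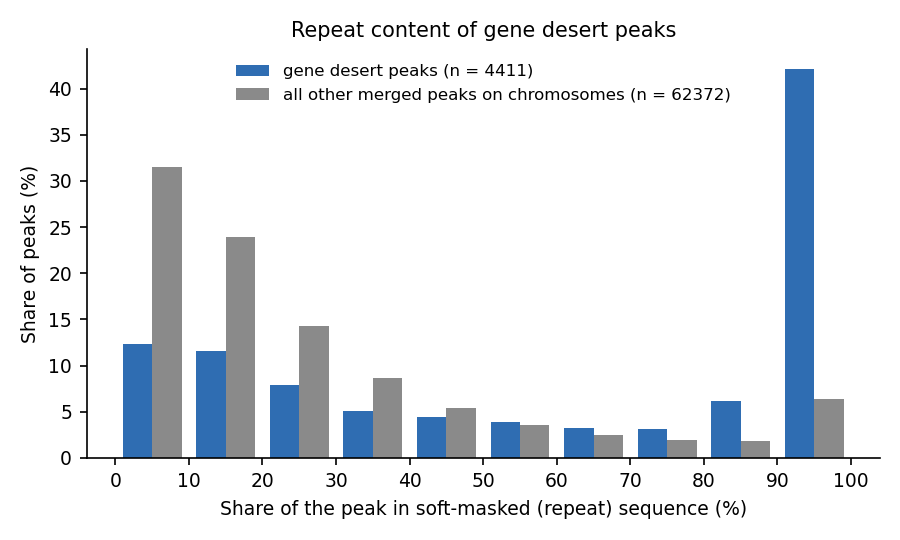
Percent of peaks (vertical axis) by the share of their bases that is soft-masked (horizontal axis, in bins of 10%), for the gene desert peaks and for the other merged peaks on chromosomes (n = 62372). In the highest bin, at least 90% masked, lie 42.2% of the gene desert peaks and 6.36% of the others.

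Repeat filling was more frequent with distance from genes. At least 80% of bases were masked in 0.72% of promoter peaks, 7.32% of peaks in gene bodies and 24.6% of intergenic peaks 50 to 200 kb from a TSS, against 48.4% in gene deserts. On the X chromosome 69.6% of 250 gene desert peaks were repeat-filled and on the Y chromosome 100% of 75. The distance of gene desert peaks to the nearest TSS had a median of 405 kb and reached 2703 kb, and their median width was 614 bp. The peaks fell into 742 deserts, here the stretches between neighbouring protein-coding gene bodies. The median desert held 4 of them and the fullest held 46, and in 258 deserts every gene desert peak was repeat-filled. Of the 4411 peaks, 122 lay within 2 kb of the start of a long noncoding RNA and 531 inside an annotated gene that is not protein-coding.

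The depth of a gene desert peak was low. Libraries held 6283103 to 8112895 reads in merged peaks, and the median gene desert peak held 28.8 reads per library. At least 10 reads in at least 2 libraries were found for 4233 of the 4411. Values are given below as reads, or as scaled reads, which are reads divided by the library's total in merged peaks and multiplied by the mean total. Promoter peaks were found for all 8 ES cell markers looked at, among them Pou5f1 and Nanog, with summed scaled reads of 14023 to 23483. Of 7 neuronal markers 5 had a promoter peak, with sums of 481 to 915, and of 8 feeder fibroblast markers only Col1a1 did, with 5.36 to 17.0.

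Gene desert peaks took a larger part of the reads at 12 h than at 0 h. Their share of all reads in merged peaks was 3.40% and 3.37% before induction (R1 and R2), 4.18% and 4.33% after 12 h, and 2.81% and 3.50% after 48 h. Both 12 h libraries lay above the other 4, and the 48 h libraries lay on either side of the 0 h libraries. The spread over the 3 means, 3.39% ± 0.0153, 4.26% ± 0.105 and 3.15% ± 0.489 (SD, n = 2), gave p = 0.2 in an exact permutation test of the 6 libraries, for which 0.0667 is the smallest p possible.

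The 2 kinds of peaks moved apart in this share. Repeat-filled gene desert peaks held 1.73% and 1.91% of reads before induction, 1.58% and 1.55% after 12 h, and 1.16% and 1.32% after 48 h. The 3 time points did not overlap, and the exact permutation test gave p = 0.0667, the smallest it can give. Less-masked peaks held 1.67% and 1.46% before induction, 2.61% and 2.78% after 12 h, and 1.65% and 2.18% after 48 h. Here the 12 h libraries lay above all others while the 0 h and 48 h libraries overlapped (exact permutation p = 0.133). In a bulk library, a change in few cells and a smaller change in all cells cannot be told apart.

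**Figure D2:**
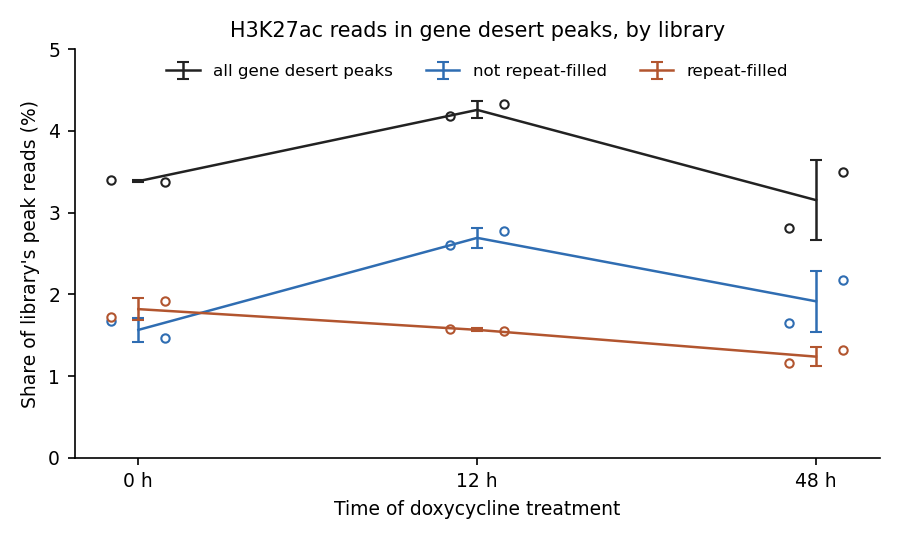
Percent of each library's reads in merged peaks that fell in gene desert peaks (vertical axis), by time of induction, for all gene desert peaks and for the repeat-filled and less-masked ones. Open points are single libraries, lines join the means of the 2 libraries per time point, and bars are the SD. The less-masked peaks are drawn as not repeat-filled. The less-masked share is highest in the 12 h libraries and the repeat-filled share lowest in the 48 h libraries.

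By 12 h of NeuroD1 induction, gain of H3K27ac in gene deserts was mostly a matter of less-masked peaks. A peak was called gained or lost when its adjusted p was under 0.05 (edgeR's quasi-likelihood test, Benjamini-Hochberg adjusted over all merged peaks). Of the 4411 gene desert peaks, 875 (19.8%) gained, against 9.93% of all merged peaks, and 114 (2.58%) lost, against 6.03%. Among the 2278 less-masked peaks 785 (34.5%) gained and 21 (0.92%) lost, with a median log2 fold change of 0.88, where the median of all merged peaks was −0.08. Among the 2133 repeat-filled peaks 90 (4.22%) gained and 93 (4.36%) lost, with a median of −0.36. The 90 gains were 6 without 0 h R2 and 161 without 48 h R1, and the 93 losses 3 without 12 h R2 and 383 without 48 h R1. For comparison, 23.2% of intergenic peaks 50 to 200 kb from a TSS that were not repeat-filled gained by 12 h. The number of 12 h gains moved when single libraries were left out, as it also did over all merged peaks. Their number and size also moved with GC content. The count of gained less-masked peaks was 410 without 0 h R1, 177 without 0 h R2, 428 without 12 h R1 and 302 without 12 h R2, and 1105 and 1090 without 48 h R1 and R2, while the median stayed between 0.74 and 1.04. Over all gene desert peaks the gains numbered 183 without 0 h R2 and 1266 without 48 h R1, and the losses 4 without 12 h R2 and 435 without 48 h R1 or R2. With an offset for each library's trend on GC content, 492 gene desert peaks gained and 36 lost, beside 8.66% and 4.36% of all merged peaks. The median of less-masked peaks was then 0.38 and that of repeat-filled peaks 0.08. Under this offset 20.41% of less-masked gene desert peaks gained (465 of 2278). The share of intergenic peaks 50 to 200 kb from a TSS that were not repeat-filled was close to it, at 19.04% (955 of 5015). The 2 shares thus differed less than without the offset, where they were 34.5% and 23.2%. Without the offset, 47.8% of less-masked peaks under 40% GC gained, against 0.91% of those over 55%. In the bins between, at 40 to 45%, 45 to 50% and 50 to 55% GC, 38.8%, 23.1% and 14.1% gained. From the lowest to the highest GC bin, repeat-filled peaks gained in 43.8%, 25.7%, 4.55%, 1.19% and 0%. Of the 2133 repeat-filled peaks, 1720 were over 55% GC. Whether the trend on GC content is technical was not tested.

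Higher levels at 12 h than at both other times were also frequent by rank. Both 12 h libraries lay above the other 4 in 1228 gene desert peaks (27.8%), against 17.8% of all merged peaks. This held for 45.6% of less-masked and 8.86% of repeat-filled peaks. A test of any change over the 3 time points called 1638 gene desert peaks (37.1%), beside 29.5% of all.

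By 48 h, losses in gene deserts slightly outnumbered gains with library totals as scale. With TMM factors, DESeq2 or the GC offset, gains outnumbered losses. Most losses lay in repeat-filled peaks. The comparison shares its 0 h libraries with the one at 12 h. Its 48 h libraries were unlike in their GC trend. The rank correlation of reads with GC content was 0.195 in 48 h R1 and 0.014 in 48 h R2. It was 0.168 and 0.210 in the 0 h libraries, and 0.006 and −0.037 in the 12 h libraries. Over gene desert peaks, 48 h R2 had a rank correlation of 0.899 with 12 h R1 and of 0.890 with 48 h R1. Over less-masked peaks these were 0.862 and 0.874. Of the 4411 peaks 411 (9.32%) gained, beside 8.56% of all merged peaks, and 488 (11.1%) lost, beside 5.45%. Repeat-filled peaks made up 456 of the losses and only 6 of the gains, with a median log2 fold change of −0.62. Less-masked peaks gave 405 gains (17.8%) and 32 losses (1.40%), with a median of 0.26. Loss was not particular to deserts, since 19.8% of repeat-filled intergenic peaks 50 to 200 kb from a TSS were also called lost at 48 h, against 21.4% in deserts. In 1807 gene desert peaks (41.0%) the 48 h levels were both lower than either 0 h level, beside 28.7% of all. The share was 69.7% among repeat-filled and 14.0% among less-masked peaks. As for all merged peaks lost at 48 h, the number of lost repeat-filled peaks fell most when a 0 h library was left out. It was 177 without 0 h R1, 4 without 0 h R2, 233 and 236 without 12 h R1 and R2, and 552 and 640 without 48 h R1 and R2, while the median stayed between −0.68 and −0.53. The gained less-masked peaks numbered 264 without 0 h R1, 132 without 0 h R2 and 640 without 48 h R1, and their median turned to −0.08 without 48 h R2 and rose to 0.50 without 48 h R1. The 32 losses of less-masked peaks were 6 and 3 without 0 h R1 and R2, 15 and 14 without 12 h R1 and R2, 51 and 185 without 48 h R1 and R2, and 101 with the GC offset. The 6 gains of repeat-filled peaks were 56 without 48 h R1 and 0 without 0 h R2. Over all gene desert peaks, gains numbered 132 to 696 and losses 7 to 825 when single libraries were left out, the lowest without 0 h R2 and the highest without 48 h R1 and 48 h R2. TMM factors gave 464 gained (10.5%) and 373 lost (8.46%) gene desert peaks, beside 9.69% and 4.05% of all merged peaks. DESeq2 called 258 gained (5.85%) and 90 lost (2.04%), beside 5.36% and 1.46%, and 82 of the lost ones were repeat-filled. With the GC offset 507 gene desert peaks gained and 406 lost, beside 13.2% and 7.12% of all, and repeat-filled peaks kept a negative median of −0.36.

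**Figure D3:**
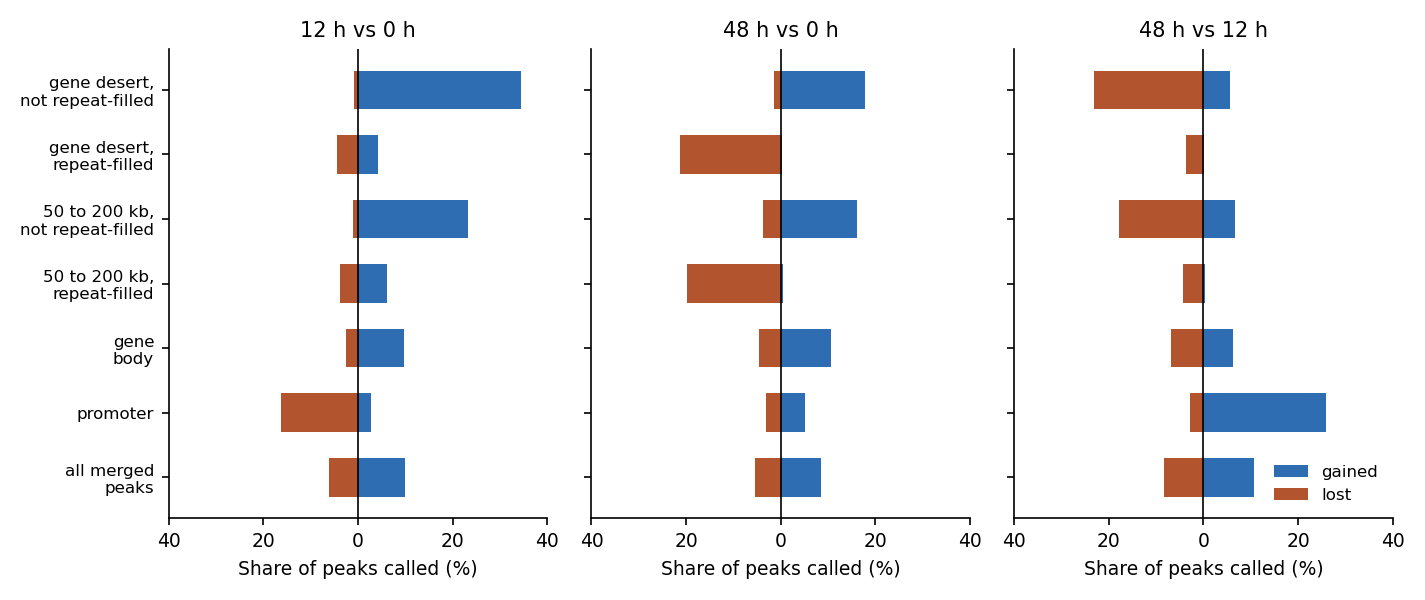
Percent of peaks called gained (bars to the right) and lost (bars to the left) in each of the 3 comparisons (horizontal axes), for gene desert peaks and intergenic peaks 50 to 200 kb from a TSS, each split into repeat-filled and not repeat-filled, and for gene body, promoter and all merged peaks. Less-masked gene desert peaks, drawn as not repeat-filled, have the longest bar for gains at 12 h (34.5%), and repeat-filled gene desert peaks the longest for losses at 48 h (21.4%).

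From 12 h to 48 h, less-masked peaks gave more losses than gains, by a smaller margin with the GC offset. This comparison shares its 12 h libraries with the one of 12 h against 0 h. Of the 4411 gene desert peaks 130 (2.95%) gained, beside 10.7% of all merged peaks, and 603 (13.7%) lost, beside 8.43%. Less-masked peaks accounted for 526 of the losses (23.1%) and 129 of the gains, with a median log2 fold change of −0.56. Repeat-filled peaks gave 77 losses and 1 gain, with a median of −0.30. These 77 were 34 and 35 without 0 h R1 and R2, 11 and 5 without 12 h R1 and R2, and 331 without 48 h R2. The losses among less-masked peaks numbered 192 without 12 h R1, 96 without 12 h R2 and 916 without 48 h R2. Over all gene desert peaks the gains numbered 42 and 22 without 12 h R1 and R2 and 215 without 48 h R2, and the losses 203, 101 and 1247. With the GC offset 276 gene desert peaks gained and 735 lost, beside 14.1% and 10.6% of all. Less-masked peaks then gave 272 gains and 331 losses, with a median of −0.21, and repeat-filled peaks 4 gains and 404 losses.

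The sequence families differed in their course. Family 1 had 385 of 1058 peaks (36.4%) called lost at 48 h and 35 at 12 h, with medians of −0.75 and −0.40. Without 0 h R2 the count at 48 h was 3, and it was 170 without 0 h R1, 201 and 204 without 12 h R1 and R2, and 521 without 48 h R2. The count at 12 h ran from 1 without 0 h R2 to 247 without 48 h R1. Family 4, the most GC-rich, had 54 of 109 peaks lost at 12 h (3 without 12 h R2, 4 without 0 h R2, 11 without 12 h R1, 21 without 0 h R1) and 35 at 48 h (2 without 0 h R2, 6 without 0 h R1, 52 without 48 h R1), with medians of −1.01 and −0.89. Under the GC offset its median at 12 h was −0.46 and 8 peaks were lost. Family 2 had a like median at 12 h (−0.38) but 6.68% of its peaks lost at 48 h, with a median of −0.55. Its peaks held a median of 30.3 reads per library, against 48.8 in family 1. Among repeat-filled peaks the share lost at 48 h was 2.60% at 10 to 20 reads and 55.1% over 100 reads. The median changes of these 2 groups were −0.55 and −0.70. Shares of the families were not compared at equal depth. With the GC offset the 12 h medians of families 1 and 2 turned positive (0.06 and 0.12), and those at 48 h were −0.49 and −0.26. The 40 losses of family 2 were 0 without 0 h R2 and 84 without 48 h R2. Family 3, of lower GC content, went the other way at 12 h, with 58 of 171 peaks gained and a median of 0.73, but with 12 gained under the GC offset, 1 without 0 h R2 or without 12 h R2, 15 without 12 h R1 and 20 without 0 h R1.

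The peaks whose units are printed above show the levels behind these medians. The family 1 peak near Aga, 1206 kb from that TSS, had 432 and 549 reads before induction, 337 and 414 after 12 h, and 243 and 321 after 48 h. Its 48 h libraries lay below both 0 h libraries. The family 2 peak near 1700008P02Rik had 1101 and 1126 reads before induction, 814 and 894 after 12 h, and 792 and 982 after 48 h, and the family 4 peak near Smarca1 had 108 and 113, 57 and 52, and 60 and 65. In both, every induced library lay below both 0 h libraries.

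The largest single gains started from almost no reads. The peak near Olfm4, which encodes a secreted glycoprotein of the gut epithelium, lay 233 kb from its TSS in the gap before Pcdh17 (chr14:80233302-80234282). It had 1 and 0 reads before induction, 13 and 18 after 12 h, and 70 and 78 after 48 h. The ratio of scaled reads at 48 h to 0 h was 137, with an exact 95% interval of 24.3 to 5465 that covers counting error only. The fitted log2 fold change was 6.80 ± 0.60 (SE, adjusted p = 3.8e-08), a value that depends on the prior count of the fit. The peak rose again between 12 h and 48 h, by 2.23 (adjusted p = 0.000137).

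Distant peaks near Sox11 and Marcks were among these gains. Sox11, a SoxC transcription factor of neuronal differentiation, had a peak 304 kb away (chr12:27645957-27646646) with 0 and 2 reads before induction, 26 and 29 after 12 h, and 38 and 56 after 48 h. Its ratio at 48 h was 43.7 (11.8 to 366) and its log2 fold change 5.28 ± 0.60 (adjusted p = 1.32e-06). Marcks encodes an actin-binding substrate of protein kinase C. Its peak 769 kb away (chr10:37907667-37908894) had 1 and 2 reads before induction, 16 and 23 after 12 h, and 48 and 83 after 48 h, with a ratio of 40.6 (13.6 to 199) and a log2 fold change of 5.22 ± 0.52 (adjusted p = 1.82e-07). In both peaks all induced libraries lay far above both 0 h libraries. Nearest genes give a position only, and no link between peak and gene was measured.

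The remaining peaks of this set followed the same order. The peak 227 kb from Pros1, the gene of the anticoagulant protein S (chr16:63081017-63082167), lay inside an annotated gene that is not protein-coding. It had 3 and 3 reads, then 14 and 23, then 70 and 94, a ratio of 25.4 (11.4 to 70.2) at 48 h, and rose by 2.11 between 12 h and 48 h (adjusted p = 0.000119). The peak 358 kb from Cypt12 (chr3:17590245-17590828) had 2 and 1, 18 and 29, and 31 and 42 reads, with a ratio of 22.6 (7.43 to 112).

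The largest gains at 12 h included peaks that had fallen back by 48 h. Neighbouring peaks 316 kb and 314 kb from Jrkl, in the gap before Cntn5, were the clearest. The first (chr9:12928898-12930255) had 2 and 1 reads before induction, 84 and 95 after 12 h, and 7 and 40 after 48 h, and the second (chr9:12930596-12932923) had 13 and 5, 146 and 193, and 33 and 93. Their 12 h gains were 5.72 ± 0.60 and 4.14 ± 0.39 on the log2 scale (adjusted p = 5e-07 and 1.61e-07), and from 12 h to 48 h they changed by −2.0 and −1.49 (adjusted p = 0.000927 and 0.00149). The 48 h libraries lay between the 0 h and the 12 h libraries, and R1 and R2 differed much at 48 h. Both peaks were picked by their 12 h libraries, which also enter the comparison of 48 h with 12 h. Its p-values do not allow for that choice. The peak 602 kb from Sorcs3, which encodes a sorting receptor of neurons, had 4 and 1, 34 and 61, and 23 and 78 reads, so its 12 h and 48 h libraries overlapped.

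**Figure D4:**
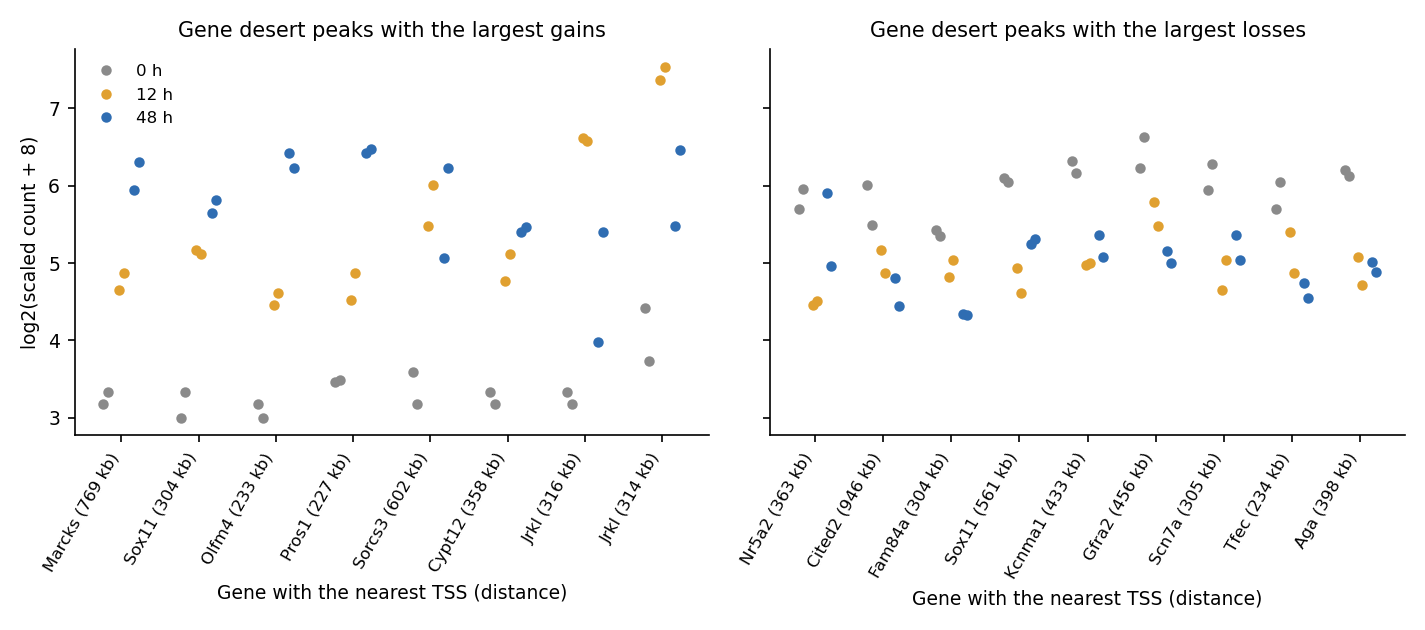
Level of each named peak in each library, as log2 of scaled reads plus a pseudocount of 8 (vertical axis), for the 8 peaks with the largest gains (left) and the 9 with the largest losses (right), labelled by the gene with the nearest TSS and the distance in kb. Points are single libraries, coloured by time point. In the gains every 0 h point lies below all induced points, and the losses span a narrower range.

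The largest losses were smaller than the gains and came mostly from the GC-rich families. Of the 9 peaks named for a loss at 12 h or 48 h, 4 belonged to family 1, 4 to family 4 and 1 to no family, whereas none of the 8 named gains belonged to any. The family 1 peak 456 kb from Gfra2, the neurturin receptor gene (chr14:71397621-71398270), had 65 and 86 reads before induction, 44 and 40 after 12 h, and 25 and 28 after 48 h. The 3 time points did not overlap, and the 48 h change was −1.61 ± 0.30 (adjusted p = 0.000615; 0.0572 without 0 h R2). The family 1 peak near Tfec (chr6:16601352-16601976), a gene of the MiT family of transcription factors, had 43 and 55, 32 and 23, and 17 and 18 reads, with −1.58 ± 0.35 (adjusted p = 0.003; 0.113 without 0 h R2). The family 4 peak 946 kb from Cited2, which encodes a partner of CBP and p300, had 55 and 35, 26 and 23, and 18 and 16 reads (chr10:16777331-16777973). Its change of −1.49 ± 0.36 (adjusted p = 0.00601) had an adjusted p of 0.138 without 0 h R1 and of 0.0712 in DESeq2.

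The loss outside the families lay near Nr5a2, which encodes an orphan nuclear receptor of early embryo and ES cells. The peak (chr1:137323360-137324145), 363 kb from the Nr5a2 TSS and 2090 bp from the start of the noncoding gene 1700006P03Rik, was 4.58% masked. It had 43 and 51 reads before induction, 13 and 16 after 12 h, and 47 and 27 after 48 h. Its 12 h libraries lay below the other 4. Since the peak was picked for its 12 h loss, the p-value of its change from 12 h to 48 h does not allow for that choice. The 12 h change was −1.77 ± 0.39 (adjusted p = 0.00309; 0.0973 without 0 h R2 and 0.0563 without 12 h R2), and the change from 12 h to 48 h was 1.35 (adjusted p = 0.0205). An intergenic peak 561 kb from Sox11 (family 4, chr12:27903092-27903809) fell to 21 and 18 reads at 12 h from 59 and 55 at 0 h, and had 27 and 37 at 48 h (12 h change −1.61, adjusted p = 0.00124; 0.0754 without 12 h R2).

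Whole deserts were compared by summing their gene desert peaks. At 12 h 169 of the 742 deserts (22.8%) gained, beside 9.41% of all features of that table, and 16 (2.16%) lost, beside 6.25%. At 48 h 74 (9.97%) gained, beside 8.54%, and 151 (20.4%) lost, beside 5.25%. Between 12 h and 48 h 21 (2.83%) gained, beside 11.4%, and 175 (23.6%) lost, beside 8.4%. Leaving out single libraries moved the 12 h gains between 37 (without 0 h R2) and 243 (without 48 h R1), and the 48 h losses between 2 (without 0 h R2) and 317 (without 48 h R2).

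The fullest desert, between Cntnap5b and Cdh20 (chr1:100485943-104768528), held 46 gene desert peaks, of which 22 were repeat-filled. Cntnap5b encodes a neurexin-like adhesion protein and Cdh20 a cadherin. Their summed scaled reads were 1628 and 1559 before induction, 2474 and 2656 after 12 h, and 1101 and 1648 after 48 h. Both 12 h libraries lay above all others, with a log2 fold change of 0.69 ± 0.16 by 12 h (adjusted p = 0.0049) and of −0.90 between 12 h and 48 h (adjusted p = 0.000578). At 12 h 16 of the 46 peaks gained and 1 lost, and 15 lost from 12 h to 48 h. Its peak with the most reads (chr1:102261896-102265716) had 198 and 132, 375 and 505, and 73 and 208 reads.

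**Figure D5:**
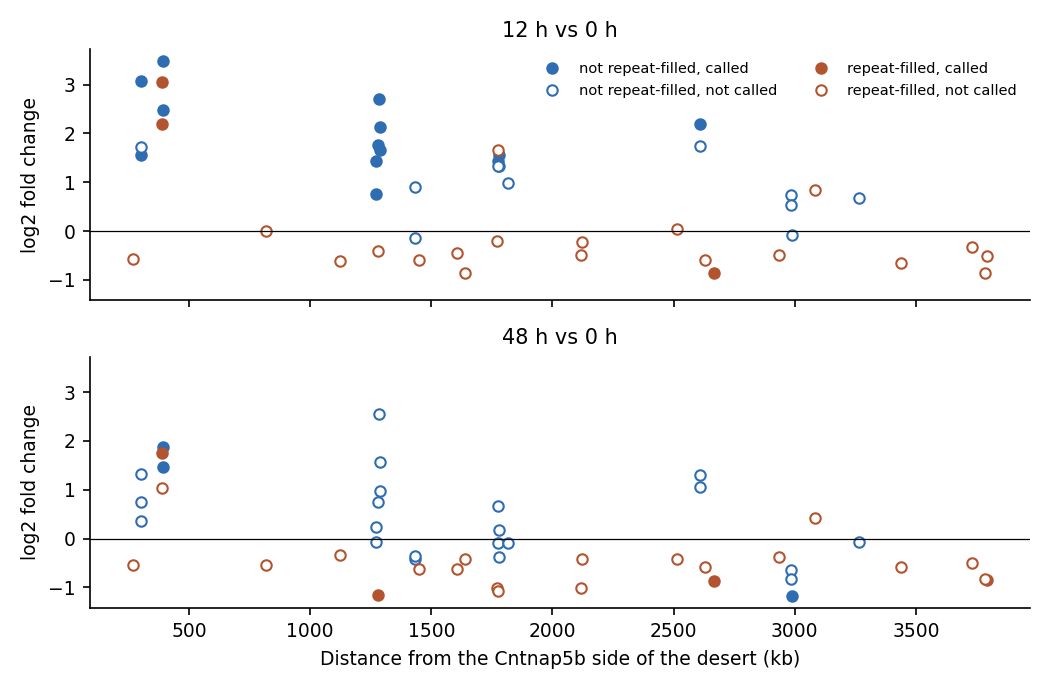
Log2 fold change of each of the 46 gene desert peaks between Cntnap5b and Cdh20 (vertical axis) against its distance in kb from the left edge of the desert (horizontal axis), at 12 h and 48 h relative to 0 h. Colours separate repeat-filled peaks from the others, and filled markers are called peaks, of which 16 gained and 1 lost at 12 h.

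Other full deserts differed from it. The sum over the 34 peaks between Nmbr and Cited2 was above 0 h at 12 h and at 48 h (log2 fold changes 0.54 and 0.50, adjusted p = 0.00984 and 0.0156), but with the GC offset the 12 h value was 0.26 (adjusted p = 0.0939). Of its peaks 5 gained at 12 h, and 8 gained and 4 lost at 48 h. Its peak with the most reads (chr10:17234340-17240562) had 402 and 288 reads before induction, 702 and 807 after 12 h, and 690 and 977 after 48 h. The 39 peaks between Cdh2, the gene of N-cadherin, and Dsc3 had summed scaled reads of 2092 and 1886, 3651 and 4396, and 2030 and 2941. By 12 h this sum had gained 1.02 on the log2 scale (adjusted p = 7.88e-05), and the value by 48 h was 0.32 (adjusted p = 0.188). The summed reads of the 39 peaks between Pcdh7 and G6pd2 were not called in any comparison (48 h against 12 h −0.36, adjusted p = 0.0865), but with the GC offset the change from 12 h to 48 h was called (−0.28, adjusted p = 0.0488).

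In some deserts the summed reads had gained by 48 h. The 12 peaks between Nox3 and Arid1b had 121 and 97.6 scaled reads before induction, 428 and 500 after 12 h, and 389 and 422 after 48 h (48 h log2 fold change 1.89 ± 0.19, adjusted p = 2.46e-07), and 9 of the 12 gained at 48 h. The sum over the 3 peaks between Cntnap4, a neurexin-like gene of interneurons, and Mon1b rose from 28.7 and 20.2 to 146 and 127 at 12 h and 129 and 158 at 48 h (2.55 ± 0.28, adjusted p = 6.04e-07), but only 1 of the 3 was itself called gained at each time. A later course was seen between Chd6, a chromatin remodeller gene, and Ptprt, a receptor phosphatase gene of synapses. Its 3 peaks had 270 and 171, 332 and 295, and 783 and 777 scaled reads in sum, which rose by 1.31 between 12 h and 48 h (adjusted p = 7.38e-05). The sum over the 7 peaks between Sp4 and Sp8, genes of zinc finger transcription factors, gained 1.87 ± 0.24 (adjusted p = 7.04e-06), with 5 of the 7 called, and that over the 3 between Sash1 and Samd5 gained 2.01, with 2 called.

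Of the 5 named deserts with the largest losses at 48 h, 2 had few or no repeat-filled peaks. The 4 peaks between Tle3, a Groucho corepressor gene, and Rplp1, of which 0 were repeat-filled, had 205 and 205 scaled reads before induction, 273 and 261 after 12 h, and 79.9 and 120 after 48 h. Their 48 h libraries lay below all others (−1.02 ± 0.22, adjusted p = 0.00215). The 9 peaks between Adcyap1, the gene of the neuropeptide PACAP, and Mettl4 included 1 that was repeat-filled and changed by −0.99 (adjusted p = 0.00158). Every peak was repeat-filled in the 3 other deserts with the largest losses, which lay between St3gal1 and Zfat (−1.19 ± 0.21, adjusted p = 0.000377), Cdh19 and Dsel (−1.12, adjusted p = 0.0302) and Pdgfc and Ctso (−0.99, adjusted p = 0.00247).

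Less-masked peaks were also read by the gene with the nearest TSS. Of 111 developmental transcription factor genes looked up, 27 were nearest to 94 less-masked peaks, of which 27 gained and 1 lost at 12 h, and 30 gained and 1 lost at 48 h, with median log2 fold changes of 0.75 and 0.70. The share gained was 28.7% at 12 h and 31.9% at 48 h, where 34.5% and 17.8% of all less-masked gene desert peaks gained. With the GC offset 26 of the 94 gained at 12 h and 34 at 48 h, where 20.4% and 21.9% of all less-masked peaks gained. Near Sox11, 4 of 13 peaks gained at 12 h and 9 at 48 h (medians 1.19 and 1.76). Near Pou3f2, a POU factor of neural progenitors, 4 of 5 gained at 12 h and 3 at 48 h, and near Sp8 both of its 2 peaks gained at each time. Near Sall3, 4 of 9 gained at 12 h and 0 at 48 h.

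Genes listed for neuronal adhesion, guidance and synapse organisation, a list that also held Marcks, were nearest to 245 less-masked peaks. Of these 105 gained and 0 lost at 12 h, 50 gained and 5 lost at 48 h, and 59 lost from 12 h to 48 h, with medians of 1.02 and 0.28 relative to 0 h. The shares were 42.9% gained at 12 h, 20.4% gained at 48 h and 24.1% lost from 12 h to 48 h. Over all less-masked peaks these shares were 34.5%, 17.8% and 23.1%, and the medians 0.88 and 0.26. With the GC offset 55 of the 245 gained at 12 h and 55 at 48 h, where 20.4% and 21.9% of all less-masked peaks gained. Marcks, described above as an actin-binding gene, had the most of these peaks. Near it, 14 of 19 peaks gained at 12 h and 13 at 48 h (medians 1.83 and 1.71). These calls are part of the shares above, which were not computed without Marcks. Near Cntnap5b 13 of 18 gained at 12 h and 2 at 48 h, and near Pcdh9, a protocadherin gene, 7 of 13 and 0, with 8 lost from 12 h to 48 h. Near the axon guidance receptor gene Robo1, 8 of 10 gained at 12 h and 6 at 48 h.

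Few gene desert peaks lay nearest to pluripotency genes. Of 50 such genes 7 were nearest to 28 less-masked peaks, of which 4 gained and 1 lost at 12 h and 2 gained and 1 lost at 48 h, with medians of 0.11 and −0.35. The share gained was 14.3% at 12 h and 7.14% at 48 h, beside the 34.5% and 17.8% of all less-masked peaks. The share lost was 3.57% at both times, beside 0.92% and 1.40%. With the GC offset 4 of the 28 gained at 12 h and 6 at 48 h, where 20.4% and 21.9% of all less-masked peaks gained. Near Sox2, 0 of 8 peaks gained at 12 h and 1 at 48 h. These lists say only which gene is nearest.

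The share of calls differed by distance within the deserts, with a direction at 12 h that turned with the GC offset. Among less-masked peaks the share that gained at 12 h was 31.5% at 200 to 300 kb and 40.3% at 1000 to 3000 kb from a TSS, while the share that gained at 48 h was 19.6% and 11.4%. With the GC offset the shares at 12 h were 22.8% and 15.6% and those at 48 h 24.9% and 13.7%. The median GC content of these peaks was 44.2% in the nearest bin and 39.0% in the farthest. The 5 farthest peaks all lay between Pcdh20 and Pcdh9 on chromosome 14, and 4 of them were repeat-filled. The one that was not (chr14:91231274-91231903, 2654 kb from a TSS) had 5 and 1 reads before induction, 16 and 35 after 12 h, and 5 and 14 after 48 h. It was the only one of the 5 called at 12 h (2.95 ± 0.63, adjusted p = 0.00241).

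Peaks at the edge of the definition held few reads. Just inside were a peak 200.1 kb from Cwc22 (17 and 23, 15 and 13, 15 and 28 reads) and one 200.2 kb from Enc1 (7 and 8, 9 and 15, 7 and 11). Just outside, at just under 200 kb, were peaks near Sash1 (7 and 8, 14 and 17, 4 and 18) and Lrrn1 (16 and 12, 12 and 9, 16 and 11). None of these 4 was called in any comparison.

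The gene desert peaks with the most reads were not the ones that changed most. The highest lay 263 kb from Stmn2, a gene of neuronal microtubules (chr3:8245137-8246669), with 2961 and 2801 reads before induction, 4391 and 5483 after 12 h, and 2242 and 3197 after 48 h. It gained 0.70 ± 0.12 at 12 h (adjusted p = 0.00043), but 0.12 with the GC offset (adjusted p = 0.543). The peak near Gm31371 (chr8:20121823-20123423) had 1779 and 2092, 1336 and 1579, and 1834 and 1895 reads, and only 6.33% of its words were single-copy. Single-copy words made up 60.9% of those in the Stmn2 peak. The other 3 lay near Olfr161, Snx16 and Enc1, with 11%, 80.2% and 96.9% of single-copy words. Levels of these peaks were not compared with Input. The Snx16 peak (chr3:11209469-11216220) gained 0.94 ± 0.16 at 12 h (adjusted p = 0.000338) and 0.30 with the GC offset (adjusted p = 0.061), and the Enc1 peak lay inside the body of a noncoding gene.

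Short sequence words were counted within 250 bp of the peak centres, on both strands. CAGATG, the E-box flavour counted for bHLH factors of the NeuroD kind, was found in 31.9% of less-masked, 14.8% of repeat-filled and 29.3% of all merged peaks. Among less-masked peaks the share gained at 48 h was 15.5% with 0 sites, 20.3% with 1 and 32.1% with 2 or more (140 peaks), and at 12 h 32.8%, 37.3% and 41.4%. The order was the same in peaks outside gene deserts and promoters, repeat-filled ones included. There the shares were 8.21%, 12.3% and 17.3% at 48 h, and 10.9%, 13.2% and 16.3% at 12 h. CAGCTG was found in 19.1% of less-masked peaks and in 25.2% of all, and CAAATG in 34.0% and 22.1%. Among less-masked peaks the share gained at 48 h was 16.4% with 0 CAGCTG sites and 23.6% with 1 or more (436 peaks). At 12 h these shares were 34.8% and 33.03%. A higher share gained at 48 h in peaks with a site was thus not particular to CAGATG. The octamer ATTTGCAT occurred in 3.29% of less-masked, 0.89% of repeat-filled and 2.25% of all peaks, the SOX site ACAATGG in 9.0%, 1.22% and 5.72%, its other form CATTGTT in 10.2%, 1.27% and 5.74%, and the AP-1 site TGANTCA in 17.1%, 4.64% and 13%. The KLF site CCACACCC and the ESRRB site TCAAGGTCA occurred in 3.34% and 1.54% of less-masked peaks, and in 5.46% and 1.64% of all. Of less-masked peaks with 0 octamers 34.2% gained at 12 h, against 42.7% of the 75 with 1 or more. At 48 h these shares were 17.7% and 20%. A match to these letters is a description and does not show binding.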

How the data were processed

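H3K27ac ChIP-seq libraries of A2Lox ES cells without NeuroD1 induction and after 12 h and 48 h of it were used, with groups taken from the sample labels, and the Input library was not used here. The authors used Bowtie2 in local mode against mm10 and SAMtools 0.1.19, called peaks with MACS2 against Input, merged them and ran QuasR to count reads. The deposited table holds raw counts per peak and library, with 0 columns from other samples and no columns of the authors' own comparisons. Tools were R 4.3.3 with edgeR 4.0.16 (glmQLFit, glmQLFTest) and DESeq2 1.42.0, BLAST 2.17.0, and Python 3.11.15 with pysam 0.24.0, numba 0.67.0, scipy 1.17.1, pandas 2.3.3, numpy 2.4.6 and matplotlib 3.10.9.

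One model of the 6 libraries, with time point as factor and library totals as offset, was fitted to all 66841 peaks without a filter, which left 3 residual degrees of freedom and a biological coefficient of variation of 14.9%. All adjusted p-values without another name came from edgeR's quasi-likelihood test and were Benjamini-Hochberg adjusted. Deserts were fitted in a table in which their peaks were replaced by the sum. TSSs and gene bodies came from GENCODE M21 protein-coding transcripts, and the 58 peaks on scaffolds were not classified. Masked bases, GC content and sequences were read from GRCm38. Words of 31 bases were sampled every 10 bases and called single-copy when they occurred once in the genome. The GC offset was a lowess curve (span 0.3) per library of log2 scaled reads, relative to the peak's mean, on GC content. Other alternatives were TMM factors, DESeq2, a filter of 10 counts in 2 libraries, the 4 compared libraries alone, R1 and R2 as a block, leaving out each library, other distances and other annotations.

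Named peaks were the 5 largest gains and losses at 12 h and 48 h among called peaks that averaged 20 reads or more and whose later libraries lay both above or both below the 0 h libraries, the 5 highest and the 5 farthest, and 2 on either side of the limit. Named deserts were the 5 fullest and the 5 with the largest gain and loss at 48 h among called deserts of 3 or more peaks. An item covered by this rule is not reported here. Members, lists and tests were chosen with earlier results of these data known. The repeat-filled class, the families, the single-copy setting and the basic transcript set were chosen after seeing the data. Genes named by nearest TSS, within lists, were chosen after their values were seen. Intervals are at 95% and cover counting error only. In data simulated at this depth for 48 h against 0 h with 200 peaks changed by 3-fold among 66841, edgeR recovered 175 with 5 false calls, and DESeq2 139 with 0. A GC trend added to simulated libraries at 12 h against 0 h gave 110 false calls, and 0 with the offset. The size of that trend was preset and not fitted to these data. The 110 calls therefore do not measure how many calls the trend of these libraries could give.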

Additional observations from a re-analysis of the deposited data

Results flagged for a closer look

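Changes relative to 0 h that differed between 12 h and 48 h were tested directly by the comparison of 48 h with 12 h (edgeR's quasi-likelihood test, Benjamini-Hochberg adjusted). This comparison called 733 gene desert peaks, of which 130 gained (2.95%, beside 10.7% of all merged peaks) and 603 lost (13.7%, beside 8.43%). Among the named peaks the difference was positive near Olfm4 (2.23 on the log2 scale), Pros1 (2.11), Marcks (1.70) and Nr5a2 (1.35), and negative at the neighbouring peaks near Jrkl (−2.0 and −1.49). These peaks were picked by their change from 0 h in the same libraries, so the comparison is not independent of the choice.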

How the results depend on the processing

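The median change of repeat-poor peaks at 12 h and of repeat-filled peaks at 48 h kept its sign under each other scaling, test, filter, block, GC offset and left-out library that was run, while counts of calls moved. With the GC offset, peaks gained and lost numbered 492 and 36 at 12 h and 276 gained from 12 h to 48 h, and deserts 1 lost at 12 h, 37 gained and 318 lost from 12 h to 48 h. With DESeq2, peaks numbered 532 gained and 22 lost at 12 h, 258 and 90 at 48 h, and 49 and 304 from 12 h to 48 h, with 2 deserts lost at 12 h and 56 at 48 h. In the same order, these peaks were 12.1% and 0.50%, 5.85% and 2.04%, and 1.11% and 6.89% of gene desert peaks. Of all merged peaks, DESeq2 called 6.12% and 1.66%, 5.36% and 1.46%, and 6.52% and 4.59%. With only the 4 libraries compared, 442 peaks and 127 deserts were lost at 12 h, and 255 and 74 at 48 h. TMM factors gave 71 peaks lost at 12 h. With a distance of 100 kb, 1493 peaks gained at 12 h, 815 at 48 h and 282 from 12 h to 48 h, when 1050 lost. With 500 kb, 319 gained and 46 lost at 12 h, 107 and 195 at 48 h, and 29 and 241 from 12 h to 48 h. The share of reads at 12 h minus that at 0 h became 1.83 and 0.309 percentage points at 100 kb and 500 kb. Without repeat-filled peaks, 21 were lost at 12 h and 32 at 48 h. Among peaks with at least 90% single-copy words, 543 gained and 3 lost at 12 h, 16 lost at 48 h, and 296 lost from 12 h to 48 h. Without peaks at other annotated genes, 86 gained from 12 h to 48 h. Beyond the smaller sets tested, the cause of these moves was not tested.

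Leaving out each library in turn moved the peaks gained and lost at 12 h over 183 to 1266 and 4 to 435, at 48 h over 132 to 696 and 7 to 825, and from 12 h to 48 h over 22 to 215 and 101 to 1247. For deserts the ranges were 37 to 243 and 0 to 128, 31 to 139 and 2 to 317, and 6 to 34 and 33 to 336. For 13 of 240 fits of named peaks the call was lost, 2 with DESeq2 and the others without single libraries. With R1 and R2 as a replicate block, 910 peaks gained and 112 lost at 12 h, 432 and 506 at 48 h, and 138 and 656 from 12 h to 48 h. Deviations of same-numbered libraries correlated at −0.04, −0.05 and 0.08 over all merged peaks, and at −0.097, −0.153 and 0.125 over gene desert peaks. With 2 libraries per time point, these values cannot show whether same-numbered libraries shared a culture or batch.

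At a median of 28.8 reads per library, small changes of single gene desert peaks were not detectable, and reads of repeat copies cannot be assigned to 1 of them.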
